A study of Caenorhabditis elegans with 12 samples.

Results

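The regions described here are the windows of annotated noncoding RNAs on the X chromosome. From a table of 51519 windows placed at the start sites of RefSeq transcripts, those with a noncoding transcript identifier (NR_), a position on X between 250000 and 17468866 (ce10) and a width of 1700 bp were taken, which gave 2768 windows. ATAC-seq, an assay in which the Tn5 transposase inserts adaptors into accessible DNA, was performed on body-wall muscle cells sorted from Caenorhabditis elegans L3 larvae. The 4 genotypes were WT, given as N2 (Bristol) in the labels, met-2(n4256) on chromosome III, set-25(n5021) on the same chromosome, and the double mutant met-2 set-25, which carries both alleles. Each genotype had 3 replicates. Cells were sorted by a muscle-specific RFP that is carried by the gwIs4 array in the strains used for sorting, so the cells of each genotype are expected to carry that transgene although the labels do not list it.

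MET-2 and SET-25 are histone methyltransferases that modify lysine 9 of histone H3 (H3K9me), a mark of heterochromatin. MET-2 deposits mono- and dimethylation, SET-25 is needed for trimethylation, and worms without both enzymes are known to lack detectable H3K9me in somatic cells. The comparison across genotypes asks whether chromatin becomes more accessible to Tn5 when one or both enzymes are missing. The X chromosome of C. elegans carries little H3K9me along most of its length, and in hermaphrodites its transcription is lowered by the dosage compensation complex. Its noncoding RNAs include miRNAs, which guide repression of messenger RNAs, snoRNAs, which guide modification of other RNAs, 21U-RNAs (the piRNAs of the germline), long noncoding RNAs and many short transcripts with no known role.

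By comparison of window edges with RefSeq transcript starts, each window was taken to run from 1500 bp before the annotated start to 200 bp after it. The study's methods describe a promoter interval of another size, so this reading comes from the table. For a miRNA the annotated start is usually that of the hairpin, so the window then holds the DNA before the hairpin and not necessarily the promoter of its primary transcript. By the RefSeq annotation, matched through the transcript identifier, 2401 of the 2768 windows belonged to genes classed only as ncRNA, 144 to piRNAs, 69 to miRNAs, 42 to lncRNAs, 29 to snoRNAs, 6 to antisense RNAs and 3 to snRNAs. A further 45 belonged to noncoding transcripts of coding genes and 2 to another class, and 27 identifiers matched no gene. The annotation placed 25 of the matched genes on another chromosome than the table did. Plus-strand transcripts accounted for 1443 windows and minus-strand transcripts for 1325.

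The windows were not independent of each other or of coding genes. They merged into 1413 loci, of which 836 held 1 window and the largest held 25. A total of 1399 windows (50.5%) overlapped at least 1 coding (NM_) window, and 1369 overlapped none. ATAC-seq reads carry no strand of transcription, so the signal of a noncoding window and that of an overlapping coding promoter cannot be told apart.

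Over the whole table, column totals were between 50148450 and 105547683 counts. The share of all counts that fell on X was 13.1 to 13.6% for WT, 13.4 to 13.6% for met-2, 13.0 to 13.3% for set-25 and 14.1 to 14.3% for the double mutant. Of 9 body-wall muscle markers, 8 had a WT level in the top 10% of all windows, with a list median at the 95.6 percentile. The lists for pharynx, intestine, hypodermis, neurons and germline had medians at the 82, 40.6, 77.7, 87 and 57.4 percentile, and no marker window was at 0. The window of 21ur-12617 on chromosome III (13288100 to 13289799), which the annotation places within set-25, held 1749 to 1893 normalized counts in WT and met-2 and 435 to 522 in set-25 and met-2 set-25. The window at the met-2 start showed 1665 to 1931 in all 12 libraries and does not check the met-2 label.

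Accessibility is given as normalized count, that is the count divided by the column total of the library and multiplied by the mean total. All 2768 windows held signal in every library, with a smallest count of 194. Mean levels over the 12 libraries ranged from 321 to 4721 with a median of 1600 (quartiles 1461 and 1764). In WT the median was 1590, against 1530 for coding windows in the same interval of X, 1421 for noncoding RNA windows on autosomes and 1512 for all windows. Within a genotype the coefficient of variation of a window had a median of 4.51%. Per genotype it was 5.24% for WT, 4.46% for met-2, 4.23% for set-25 and 4.25% for the double mutant.

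The highest level was that of W01H2.11, an annotated snoRNA (X, 4222242 to 4223941, minus strand). Its normalized counts were 4055, 5055 and 3488 in the WT libraries, 4859, 5254 and 3741 in those of met-2, 3516, 3844 and 3895 in those of set-25, and 5274, 7136 and 6535 in the double mutant. The met-2 set-25 libraries lay above all others, although the lowest of them was close to met-2 replicate 2, and the met-2 libraries overlapped with WT. The overlapping window of W01H2.7 had almost the same values. F58A3.6 (X, 11030875 to 11032574), an ncRNA without a named role, came next with 3282, 3864 and 2908 in WT and 4198, 5476 and 4731 in met-2 set-25. It was higher in the double mutant (log2 fold change, log2FC, of 0.52 with an FDR of 0.00043 by the quasi-likelihood test of edgeR), although this call was lost without WT replicate 3 (FDR = 0.0167) or met-2 set-25 replicate 2 (FDR = 0.0193).

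The lowest levels were those of Y40C7B.8, Y40C7B.9 and Y40C7B.7, which share 1 locus (X, from 17260968 to 17263470). Y40C7B.8 held 315, 274 and 378 normalized counts in WT and 333, 277 and 329 in met-2 set-25. The genotypes overlapped at this locus, and its log2FC in met-2 set-25 was −0.04 ± 0.0997 (SE, edgeR FDR = 0.81).

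**Figure D1:**
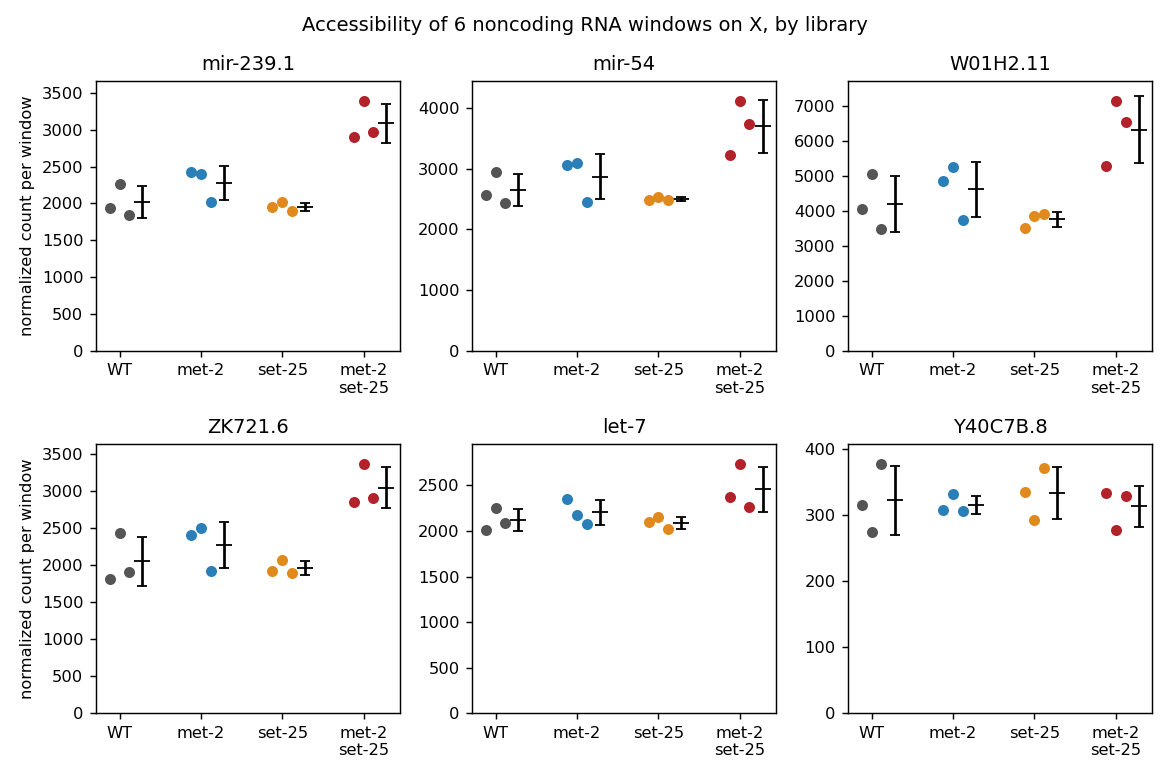
Normalized count per window in each of the 12 libraries for 6 noncoding RNA windows on X, with 3 points per genotype (left to right, replicates 1 to 3) and a bar for mean ± SD. The met-2 set-25 libraries lie above every WT library at mir-239.1, mir-54, W01H2.11 and ZK721.6, at let-7 by a small margin (2261 against 2250), and overlap with WT at Y40C7B.8.

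Accessibility of the noncoding RNA windows on X increased in the double mutant at a minority of windows and by small amounts. With edgeR's quasi-likelihood test over all 51281 windows that held counts, 278 of 2768 windows (10%) were higher in met-2 set-25 than in WT at an FDR below 0.01, and 0 were lower. Among all windows tested, 3.44% were higher and 0.731% were lower. At an unadjusted p below 0.05, 759 of the noncoding windows were higher and 39 lower, against 5485 and 7892 of all 51281 windows. DESeq2 also called 0 lower, against 0.612% of all windows. Coding windows in the same interval of X gave 338 of 3838 (8.81%), whereas 447 of 19931 noncoding RNA windows on autosomes (2.24%) were higher.

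The median log2FC of the 2768 windows was 0.04 (quartiles −0.02 and 0.14, range −0.22 to 0.61), with a median SE of 0.061 per window. It was also 0.04 for coding windows on X, −0.06 for noncoding windows on autosomes and −0.04 for all windows tested. Medians per library, relative to the WT mean, were −0.02, 0.02 and 0.00 in WT and 0.07, 0.04 and 0.05 in met-2 set-25, so that the libraries did not overlap. In met-2 they were 0.02, 0.01 and 0.00, and in set-25 −0.01, −0.00 and −0.05. The direction of this median depended on the scaling: with the library size taken from the coding windows of X it was −0.04, and the calls were then 141 higher (5.09%) and 36 lower (1.3%), against 1.91 and 11.5% of all windows. The same scaling moved the median of all windows from −0.04 to −0.12. It holds the total of the X coding windows equal across libraries, and 50.5% of the windows described overlap a coding window. For that reason it is not an independent check of the direction on X.

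The 278 windows with increased accessibility came from 164 loci and 272 genes. Their log2FC had a median of 0.31 (quartiles 0.27 and 0.39), from 0.21 to 0.61, which corresponds to a median of 1.24-fold and a maximum of 1.53-fold. At 275 of them the 3 met-2 set-25 libraries lay above all 3 WT libraries. The windows were chosen by these same libraries, so this separation largely follows from the choice. Over all 2768 windows such a separation held for 762 (27.5%), against 10.5% of all windows tested. The mean of met-2 set-25 was the highest of the 4 genotypes at all 278, which reflects the same choice in part. Over all 2768 windows it was the highest at 1460 (52.7%), against 22.5% of all windows.

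Libraries differed in signal over background, and this moved with the result. A signal index was computed as the share of a library's autosomal window counts that fell in the 5% of windows with the highest level in set-25, leaving out the 10 windows with most counts. It was 9.31, 9.98 and 9.08% for WT, 9.78, 10 and 8.87% for met-2, 9.12, 9.15 and 9.12% for set-25, and 10.1, 11.3 and 10.4% for the double mutant. All met-2 set-25 libraries exceeded all others, and replicate 2 had the highest index in each of the 4 genotypes. With the index as a covariate, 2 of the 278 calls remained, against 0.0624% of all windows called higher in that fit. The 278 windows then had a median log2FC of 0.13, with 274 above 0. They were chosen by a difference between these same libraries, so their direction in this fit is a description only. In the same fit the median was 0.06 for the 2768 windows and −0.002 for all windows. Because the index was highest in each met-2 set-25 library, it and the genotype cannot be told apart.

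**Figure D2:**
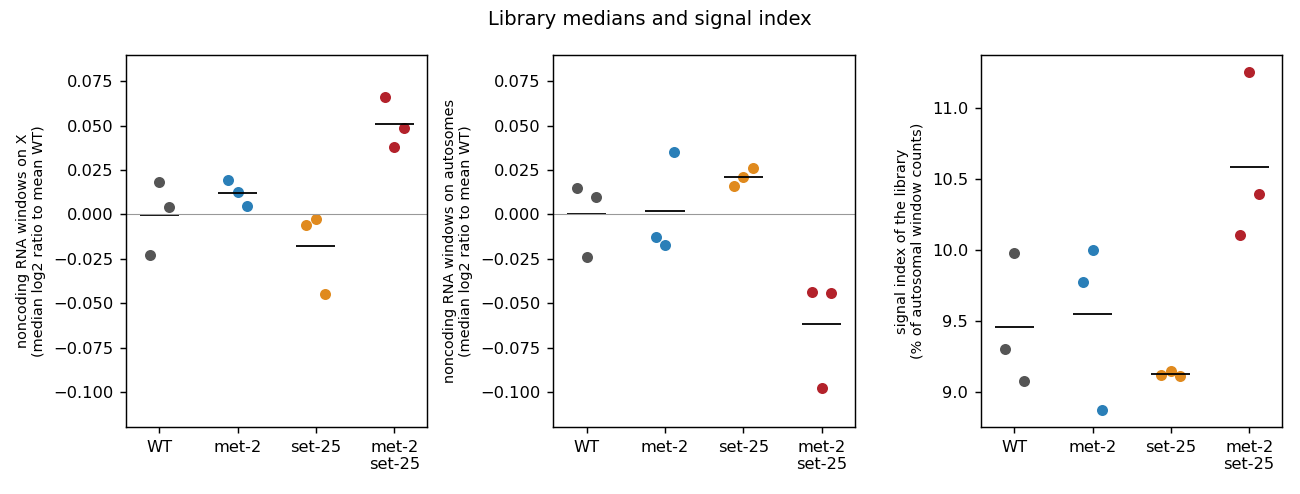
Median log2 ratio to the mean of WT for noncoding RNA windows on X (left) and on autosomes (middle), and the signal index of each library in % (right), with 3 points per genotype and a line at their mean. In met-2 set-25 the medians on X lie at 0.04 to 0.07 and the index at 10.1 to 11.3%, above the libraries of the other genotypes, whereas the medians on autosomes lie below them.

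The increase also depended on single libraries. Without WT replicate 1 the count of higher windows was 77 (2.78%, against 1.07% of all windows), without WT replicate 3 it was 52 (1.88%, against 0.644%), and without met-2 set-25 replicate 2 it was 37 (1.34%, against 0.478%), and all of these were among the 278. The other 9 omissions left between 228 and 415 windows (8.24 to 15%, against 2.47 to 5.28% of all windows). The body-wall muscle markers moved with the double mutant as well: the summed normalized count of the 9 windows was 18440 to 21564 for WT, 18390 to 22054 for met-2, 18571 to 19049 for set-25 and 23189 to 27035 for the double mutant, and 6 of the 9 were called higher in met-2 set-25. Of the windows of the other 5 marker lists, 0 were called higher and 1, on the germline list, was called lower. The summed level of the neuron list was 8524 to 8733 in the double mutant against 8824 to 8973 in WT, and that of the germline list 7345 to 7774 against 7834 to 8078, both without overlap. The sums for pharynx (8386 to 8710 against 8515 to 8696), intestine (6988 to 7445 against 7277 to 7920) and hypodermis (9833 to 10161 against 10143 to 10851) overlapped with WT. The part of these differences in the result was not tested. In bulk material a change in the mixture of sorted cells and a change in each cell cannot be told apart.

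Windows with a high level accounted for most of the increase. When the 2768 windows were divided into 5 groups by their mean level, the share called higher in met-2 set-25 was 0.181, 0.542, 3.07, 8.68 and 37.7% from the lowest to the highest group. The highest group (mean level 1823 and above) held 209 of the 278 windows, with a median log2FC of 0.23. Divided by the mean of the met-2 and set-25 libraries alone, which enter the fit and its dispersion but not the fold change of met-2 set-25 over WT, the shares were 0.181, 0.904, 4.33, 9.58 and 35.2%. Coding windows on X in the same ranges of mean level over all libraries gave 0.492, 0.215, 1.72, 11.8 and 42.9%, and noncoding windows on autosomes 0.183, 0.304, 0.67, 2.76 and 16.7%. All windows tested gave 0.325, 0.274, 1.09, 3.45 and 18.8% in these ranges, with a median log2FC of 0.12 in the highest group. The rise with level was thus not particular to the windows described. In WT the 278 windows had a median level of 1919 (quartiles 1737 and 2131). Across the 2768 windows, which share libraries and partly overlap, Spearman's rho between level and log2FC was 0.53, given as a description.

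**Figure D3:**
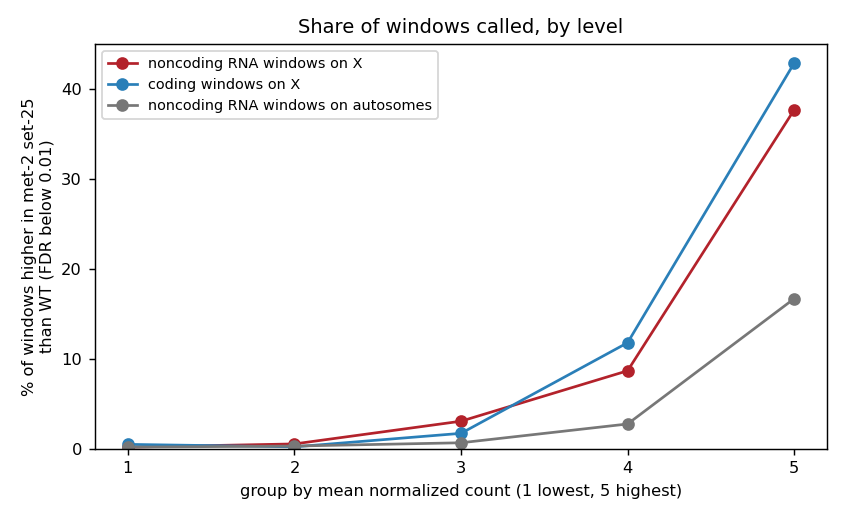
Percentage of windows called higher in met-2 set-25 than in WT (FDR below 0.01) in 5 groups of increasing mean normalized count, with the same limits of level for the 3 sets of windows. The lowest and the highest group had 0.181 and 37.7% for noncoding RNA windows on X, 0.492 and 42.9% for coding windows on X and 0.183 and 16.7% for noncoding RNA windows on autosomes.

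A low level did not preclude a call. C30F2.6 (X, 16090586 to 16092285), an ncRNA named here after its values were seen, was the called window with the lowest mean. It held 1015, 1139 and 1114 normalized counts in WT, 1321, 1256 and 1148 for met-2, 1043, 1200 and 1169 for set-25, and 1391, 1468 and 1415 for the double mutant. The double mutant lay above all other libraries, with a log2FC of 0.38 and an FDR of 0.00026. With the signal index as a covariate the log2FC was 0.27 (FDR = 0.383), and DESeq2 gave it no adjusted p.

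The mir-239 locus had the smallest FDR of the 2768 windows. The miRNAs mir-239.1 and mir-239.2 are annotated here on opposite strands next to the snoRNA C34E11.20 and the ncRNA C34E11.9. Their 4 windows overlap each other (X, from 11790548 to 11793178), overlap no coding window and lie 6059 to 7069 bp from the nearest coding start. At mir-239.1 (X, 11790878 to 11792577) normalized counts were 1938, 2260 and 1846 in WT and 2428, 2400 and 2014 in met-2. The set-25 libraries had 1947, 2014 and 1902, and the double mutant had 2902, 3389 and 2971. The double mutant exceeded every other library, set-25 resembled WT and 2 of the met-2 libraries lay above WT.

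The log2FC of mir-239.1 in met-2 set-25 was 0.61 ± 0.0815 (SE, n = 3 and 3) with an FDR of 4.8e-07, the largest change of all 2768 windows. It was also higher than met-2 (0.44, FDR = 0.0012) and than set-25 (0.66, FDR = 5.6e-08), while met-2 against WT was 0.18 (FDR = 0.92). C34E11.20 and mir-239.2 changed by 0.59 and 0.58 (FDR = 3.0e-06 and 3.4e-06). The call of mir-239.1 over met-2 was lost without met-2 set-25 replicate 2, where 0% of the 2768 windows were higher than in met-2. The calls of mir-239.1, C34E11.20 and mir-239.2 over WT persisted in each fit with 1 library left out. With the signal index as a covariate mir-239.1 and C34E11.20 were the 2 calls that remained, at 0.34 (FDR = 0.0012) and 0.32 (FDR = 0.0035).

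Another group of miRNAs shared 1 locus of high accessibility. mir-54, mir-55 and mir-56, members of one miRNA family transcribed together, have windows from 13144518 to 13146524 on X that overlap over most of their length and thus share reads. At mir-54, normalized counts were 2575, 2942 and 2436 for WT, 3068, 3097 and 2446 for met-2, 2487, 2539 and 2494 for set-25 and 3233, 4119 and 3745 for the double mutant. The double mutant lay above all other libraries, and replicate 3 of met-2 and of WT were low. The log2FC was 0.48 ± 0.0913 at mir-54 (FDR = 0.00034), 0.47 at mir-55 and 0.47 at mir-56. The calls were lost without WT replicate 3 (FDR between 0.0107 and 0.0202) and without met-2 set-25 replicate 2 (0.0140 to 0.0257), and at mir-56 also without WT replicate 1 (0.0114).

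Over the 69 miRNA windows, 7 (10.1%) were called higher in met-2 set-25, with a class median of 0.04. Beside mir-239.1, mir-239.2, mir-54, mir-55 and mir-56, these were mir-392 (0.25, FDR = 0.0045) and mir-8196.1 (0.22, FDR = 0.0054). Of a list of 16 miRNAs chosen by name, 15 had a window, and 3 of those (mir-54, mir-55 and mir-56) passed the test. let-7, which controls the timing of larval development, held 2015, 2250 and 2083 in WT and 2374, 2736 and 2261 in met-2 set-25. Its log2FC of 0.21 did not pass the test (FDR = 0.054), and the met-2 and set-25 libraries overlapped with WT.

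For mir-237, which is related in sequence to the lin-4 miRNA, the log2FC was 0.18 (FDR = 0.053), with DESeq2 it passed the test (0.22, FDR = 0.0022), and mir-237 was higher in met-2 set-25 than in set-25 (0.24, FDR = 0.0041). The let-7 family member mir-84 had a log2FC of 0.10 (FDR = 0.27). The remaining 9 miRNAs of the list were mir-62, mir-73, mir-74, mir-81, mir-82, mir-230, mir-233, mir-240 and mir-249, with values between −0.13 (mir-82) and 0.10 (mir-81). None of these 9 passed the test against WT in any mutant, but with the library size from X coding windows mir-82 was called lower (−0.21, FDR = 0.0087).

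**Figure D4:**
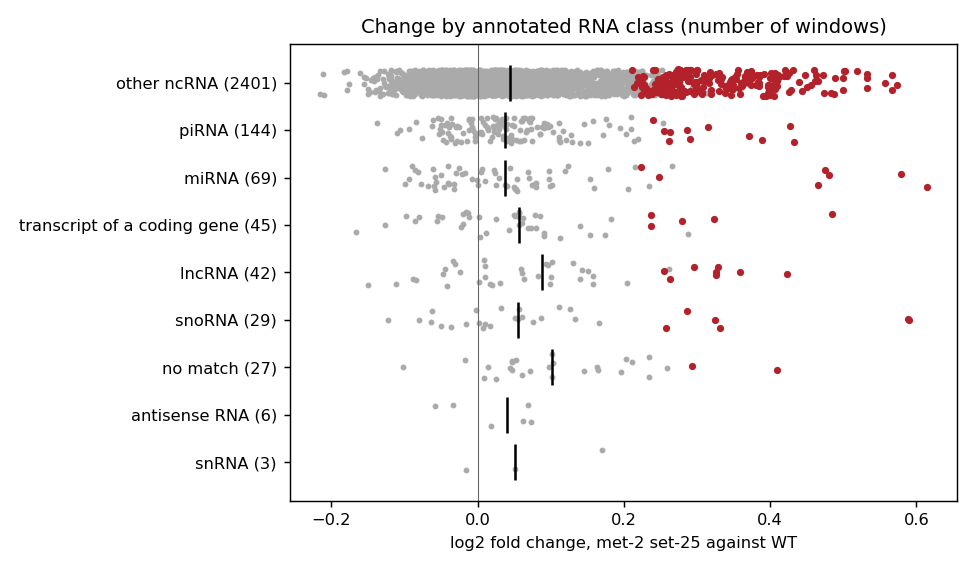
Log2 fold change of met-2 set-25 against WT for each noncoding RNA window on X, by annotated class with the number of windows in parentheses; red points have an FDR below 0.01 and black lines mark the class medians. Medians lie between 0.04 and 0.10 in the classes drawn, and called windows occur in 7 of the 9 classes drawn, all above 0.2.

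Among the other classes, lncRNAs and snoRNAs had the highest shares of called windows, with few members each. Of 42 lncRNA windows, 8 (19.0%) were higher in met-2 set-25, and of 29 snoRNA windows 6 (20.7%), against 9.95% of the 2401 windows for genes classed only as ncRNA. The differences between classes were not tested, and their windows differ in level and overlap. piRNA windows gave 11 of 144 (7.64%), transcripts of coding genes 5 of 45 (11.1%) and unmatched identifiers 2 of 27 (7.41%). Against WT, none of the 6 antisense RNA or 3 snRNA windows passed the test.

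The lncRNA with the smallest FDR was linc-103 (X, 6255242 to 6256941), a long intergenic noncoding RNA without a known role. Its normalized counts were 2007, 2293 and 1830 in WT and 2186, 2373 and 1852 in met-2. For set-25 they were 1934, 1879 and 1988, and the double mutant had 2581, 2923 and 2718. The double mutant was above all other libraries, with a log2FC of 0.42 (FDR = 0.00031), and the call was lost without WT replicate 3 (FDR = 0.0146). The other called lncRNAs were 3 transcripts of linc-34 with overlapping windows (0.33 each), linc-22 (0.36), linc-118 (0.30), linc-75 (0.26) and linc-130 (0.26). They were named after their values were seen.

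tts-1, a long noncoding RNA known from long-lived daf-2 mutants, where it lowers ribosome levels, is annotated as ncRNA. All 5 windows of its locus (X, from 1503685 to 1506496) were called, among them 2 transcripts of tts-1 with the same window. tts-1 held 1626, 1717 and 1379 in the WT libraries, 1848, 1750 and 1607 in those of met-2, 1541, 1562 and 1535 in those of set-25, and 1859, 1943 and 1912 in the double mutant. The double mutant exceeded all other libraries narrowly, by a log2FC of 0.28 (FDR = 0.0016). The call was lost without WT replicate 3 (FDR = 0.0840), without met-2 set-25 replicate 2 (FDR = 0.0243) and with the library size from X coding windows (FDR = 0.0125). By contrast rncs-1, an ncRNA that inhibits Dicer, had a log2FC of 0.06 (FDR = 0.51).

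Of the snoRNAs, W01H2.11 and C34E11.20 changed most, by 0.59 each. W01H2.11 had an FDR of 0.00015 and was called in each fit with 1 library left out, narrowly without WT replicate 3 (FDR = 0.0088). With the signal index as a covariate its log2FC was 0.12 and the call was lost (FDR = 0.663). For W01H2.7 in the same locus the log2FC was 0.57 (FDR = 0.00023), and this call was lost without WT replicate 3 (FDR = 0.0119), without met-2 set-25 replicate 2 (0.0118) and with DESeq2 (0.0129). T27A8.8 (0.33), C26G2.11 (0.32), M163.14 (0.29) and K02B9.10 (0.26) were the remaining called snoRNAs.

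Among the piRNA windows, 21ur-15048 (X, 3688392 to 3690091) had the smallest FDR. piRNAs are made in the germline and most of their genes lie on chromosome IV, so these X windows in sorted muscle describe the DNA at the annotated start and not piRNA production. The normalized counts were 1908, 2131 and 1993 for WT, 2084, 2330 and 1834 for met-2, 1813, 2050 and 1989 for set-25 and 2538, 3002 and 2578 for the double mutant. The double mutant stood above all others with a log2FC of 0.43 (FDR = 0.00023), and without met-2 set-25 replicate 2 the FDR was 0.0103. 21ur-14151 changed by 0.43 and 21ur-13424 by 0.39.

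The 45 noncoding transcripts of coding genes overlapped a coding window in 42 cases. The largest change was that of T10B10.4 (X, 15188570 to 15190269), with 2653, 3462 and 2551 in WT and 3491, 4555 and 4095 in the double mutant (log2FC 0.48, FDR = 0.00066). The WT libraries lay below the double mutant, of which replicate 2 was again the highest. The call was lost without WT replicate 1 (FDR = 0.0151), WT replicate 3 (0.0220) or met-2 set-25 replicate 2 (0.0236). The others were F38B2.4 (0.32), mek-1 (0.28), which encodes a MAP kinase kinase, and 2 transcripts of inx-1 (0.24), which encodes a gap junction subunit.

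The other 7 of the 8 loci with the smallest FDRs belonged to genes classed only as ncRNA, for which no role is known. They were F41G4.11 (log2FC 0.43), T22E5.10 (0.50), ZK721.6 (0.57), C40C9.13 (0.50), C04C11.14 (0.35), C34H3.12 (0.35) and F46C8.16 (0.50), with FDRs from 7.1e-06 to 3.9e-05. ZK721.6 (X, 8787621 to 8789320) held 1820, 2430 and 1912 in WT and 2408, 2498 and 1926 in met-2. For set-25 they were 1928, 2069 and 1896, and the double mutant had 2861, 3372 and 2914. At each of these 7 loci, all met-2 set-25 libraries lay above the rest. At ZK721.6, WT replicate 2 and met-2 replicates 1 and 2 were higher than the remaining libraries. C04C11.14 (X, 14042811 to 14044510), which overlaps no coding window, was tighter with 1556, 1599 and 1475 in WT and 1942, 1991 and 1977 in met-2 set-25. With the signal index as a covariate these 7 had log2FCs of 0.12 (F46C8.16) to 0.27 (F41G4.11) and FDRs of 0.133 to 0.741.

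Windows with and without overlap with a coding window were both among those called, and the difference in their shares was not tested. Windows that overlapped a coding window were called in 151 of 1399 cases (10.8%), and those that overlapped none in 127 of 1369 (9.28%). Of the 193 windows that overlapped a coding window with increased accessibility, 120 were called themselves, whereas 158 of the 278 called windows overlapped no such coding window. With growing distance between the noncoding start and the nearest coding start (under 500 bp, up to 2000 bp, up to 5000 bp and beyond), the shares were 9.80, 10.9, 9.66 and 9.09%.

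Along the chromosome the share of called windows varied by Mb. It was 0% of 53 windows in the first Mb, 21% (26 of 124) between 16 and 17 Mb, 17.6% (30 of 170) between 8 and 9 Mb and 3.47% (6 of 173) between 15 and 16 Mb. The median log2FC per Mb ranged from −0.06 in the first Mb to 0.09 between 16 and 17 Mb. Neighbouring windows share reads, and these differences were not tested.

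In the single mutants no window passed the test. met-2 had 0 windows higher and 0 lower than WT (0.0702 and 0.0312% of all windows), and set-25 had 0 and 0 (0.0117 and 0.0156%), with edgeR and with DESeq2. At an unadjusted p below 0.05, met-2 gave 68 higher and 28 lower, against 1188 and 1507 of all 51281 windows. For set-25 these were 38 higher and 116 lower, against 2284 and 1571. Median log2FCs were 0.01 (met-2) and −0.02 (set-25), with values from −0.20 to 0.26 and from −0.25 to 0.23. All 3 met-2 libraries lay above WT at 105 windows (3.79%, against 4.22% of all windows), and all 3 set-25 libraries at 80 (2.89%, against 7.59%). All 3 set-25 libraries lay below WT at 169 windows (6.11%, against 5.35%). The mean of set-25 was the lowest of the 4 genotypes at 43.9% of the windows, against 39.1% of coding windows on X and 21.8% of all windows.

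At the 278 windows called in the double mutant, the single mutants had a median log2FC of 0.07 (met-2) and −0.07 (set-25). The mean was above WT at 261 of them in met-2 and below WT at 240 in set-25. These comparisons share the WT libraries with the comparison that chose the windows, so the values are given side by side only.

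**Figure D5:**
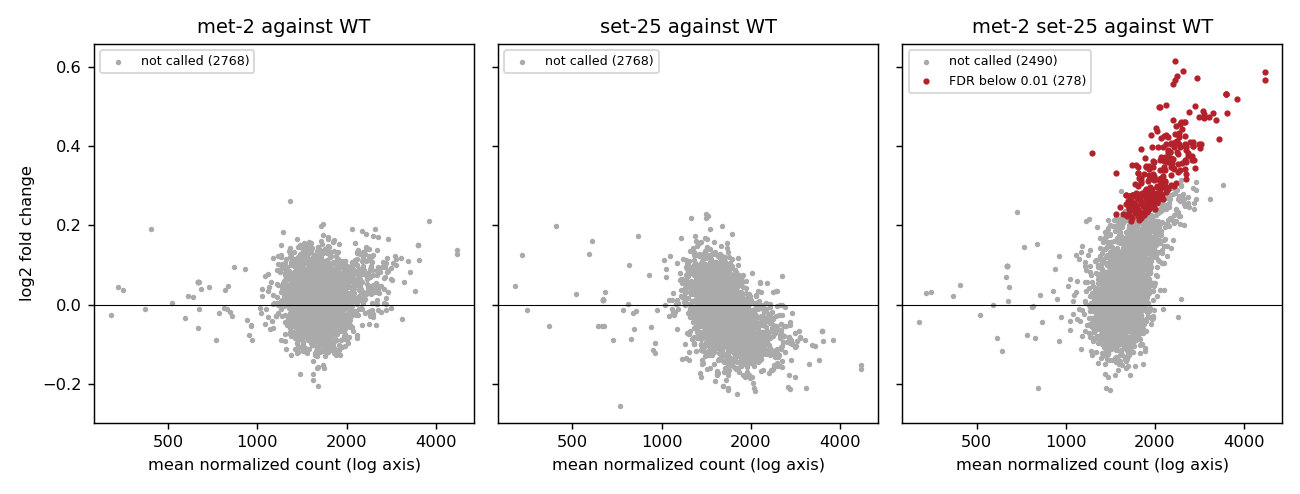
Mean normalized count over the 12 libraries (log axis) against the log2 fold change over WT for the 2768 noncoding RNA windows on X in each mutant; red points have an FDR below 0.01. In met-2 and set-25 no window is called, and in met-2 set-25 the 278 called windows lie above 0.2 and 209 of them at levels of 1823 and above.

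The double mutant was also compared with each single mutant. Against met-2, which asks what loss of set-25 adds when met-2 is absent, 43 windows (1.55%) were higher in met-2 set-25 and 0 lower, against 0.367 and 0.0371% of all windows. At an unadjusted p below 0.05 there were 692 and 47, against 4720 and 6452 of all 51281 windows. DESeq2 called 0 lower, against 0.0156% of all windows. Against set-25, which asks what loss of met-2 adds when set-25 is absent, 576 windows (20.8%) were higher and 2 lower, against 7.64 and 3.77% of all windows. Of the 278 windows higher than WT, 269 were also higher than set-25 and 39 higher than met-2, with the same met-2 set-25 libraries in each comparison. The median log2FC of the 2768 windows was 0.04 against met-2 and 0.05 against set-25.

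The 2 windows with decreased accessibility relative to set-25 were F31F6.11 and F41E7.13, both ncRNAs. F31F6.11 (X, 14881171 to 14882870) held 1725, 1663 and 1770 in set-25 and 1446, 1419 and 1501 in the double mutant, with 1648, 1507 and 1729 in WT. The log2FC was −0.24 against set-25 (FDR = 0.0014) and −0.16 against WT (FDR = 0.059). F41E7.13 (X, 10296477 to 10298176) fell by 0.28 on the log2 scale against set-25 (FDR = 0.0029), and its WT libraries, at 1079, 1169 and 1357, overlapped with the double mutant at 1195, 1134 and 1131.

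Both counts against the single mutants depended on the processing. Once the index was a covariate, 0 windows were higher than in met-2 and 0 higher than in set-25, where 0.0215% of all windows were called higher. With the library size from X coding windows the calls against set-25 were 364 higher (13.2%) and 127 lower (4.59%), against 4.57 and 32.6% of all windows. Against set-25, leaving out met-2 set-25 replicate 2 gave 319 higher (11.5%, against 3.69% of all windows), the omission that changed this count most. The count of lower windows was 0 without met-2 set-25 replicate 2, 1 without set-25 replicate 2, 4 without WT replicate 2 or met-2 replicate 3, and 5 without met-2 set-25 replicate 3.

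The comparison with met-2 gave few calls, and their number moved with single libraries. Without met-2 set-25 replicate 2 it gave 0 windows, without met-2 replicate 3 it gave 1, without set-25 replicates 1, 2 or 3 it gave 23, 14 and 14, without met-2 replicate 1 it gave 17 and without met-2 set-25 replicate 3 it gave 21. It gave 133 without WT replicate 2, 83 without WT replicate 3, 95 without met-2 replicate 2 and 80 without met-2 set-25 replicate 1. Over all windows the share called higher moved alike, from 0.041% without met-2 set-25 replicate 2 to 1.21% without WT replicate 2. The windows with the smallest FDR were F41G4.10 (0.38, FDR = 0.00026) and C54D2.14 (0.35, FDR = 0.0012).

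A test of the interaction asked whether the effect of losing both enzymes differed from the sum of the single effects on the log2 scale. At 5 windows (0.181%) it was called above 0, and at 0 windows below 0, against 0.105 and 0.039% of all windows. Coding windows on X gave 0.104 and 0%, so the share was near that of other windows. At an unadjusted p below 0.05, 676 were positive and 53 negative, against 5055 and 6880 of all 51281 windows. DESeq2 called none below 0, against 0.0234% of all windows. F41G4.10 (X, 16813977 to 16815676), which overlaps 2 coding windows, had the largest value among the 5 called windows (0.49), whereas W01H2.11 had a larger value that did not pass the test (0.61, FDR = 0.018). Its normalized counts were 1781, 1971 and 1777 in the WT libraries, 1906, 1928 and 1773 in those of met-2, 1622, 1694 and 1817 in those of set-25, and 2316, 2636 and 2345 in the double mutant, so that the single mutants overlapped with WT and the double mutant did not.

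The remaining windows with an interaction were C45B2.19 and C45B2.16, which share a locus, F41D9.15 and the piRNA 21ur-12247. At C45B2.19 (X, 6050920 to 6052619) the single mutants had lower means than WT without passing the test and met-2 overlapped with WT, with 1740, 1843 and 1596 for WT, 1634, 1674 and 1500 for met-2 and 1501, 1558 and 1415 for set-25, and the double mutant had 1869, 1933 and 1859. The double mutant against WT did not pass the test there (log2FC 0.13, FDR = 0.14). The number of interaction calls moved with single libraries: it was 0 without WT replicate 2, 1 without met-2 replicate 3, set-25 replicate 3 or met-2 set-25 replicate 2, and 98 without WT replicate 3. It was 10 without WT replicate 1, 9 without met-2 replicate 1, 56 without met-2 replicate 2, 32 without met-2 set-25 replicate 1 and 13 without met-2 set-25 replicate 3. Over all windows the share was 0.0507% without WT replicate 2 and 0.901% without WT replicate 3.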

How the data were processed

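ATAC-seq was measured in 12 libraries of sorted L3 body-wall muscle, 3 for each of 4 genotypes, which were grouped by the sample labels. The authors deposited a table of raw counts per window. Per the labels and the study's methods, adaptors were trimmed with cutadapt, reads were aligned to ce10 with Bowtie2, duplicates were removed with Picard, pairs were split with bedtools 2.26, read ends were shifted for the Tn5 offset, and reads were counted regardless of strand. How reads with several alignments were treated is not given in the sources used here, so windows of repeated sequence are uncertain. The labels' growth protocol gives fewer biological replicates than the 3 listed, whereas the paper states 3 independent biological replicates for the ATAC-seq. The p-values measure the spread between these libraries, and the 2 sources differ on whether all of it is biological. Replicates differed by more than counting noise over the windows described (chi-square per window 3.12 to 8.69). Column totals are sums over overlapping windows and not sequencing depth. The median count of a window described here was 978 to 2088 per library, and the floor of 3 counts was never reached.

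Two-sided quasi-likelihood tests (glmQLFTest after glmQLFit, edgeR 4.0.16, R 4.3.3) were run in 1 fit of 12 libraries with the column total as library size and no further factors, over 51281 windows with at least 1 count. The other 238 windows held none. P-values were adjusted by Benjamini-Hochberg over all windows tested, and an FDR below 0.01 was called. A combined 565 windows join several intervals and none of them is described here. Ratios per library used log2(normalized count + 8). Gene names and classes were matched by transcript identifier to RefSeq (WBcel235). Its coordinates were not used for positions, and 2741 of 2768 identifiers matched.

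The windows and lists were chosen with earlier results of these data known. Named were the 8 loci with the smallest FDR higher in met-2 set-25 without overlap of libraries, up to 4 lower by the same rule (none found), up to 2 per direction in each other comparison, the 3 highest and 3 lowest levels, a list of 16 miRNAs, and any window beyond a log2FC of 0.9 (none found). Other windows were named after their values were seen. Alternatives were TMM factors, DESeq2 1.42.0, filterByExpr, a replicate block, a signal index covariate, library sizes from X coding windows, fits without combined windows or with the compared genotypes only, an FDR of 0.05, windows without coding overlap, 1 window per distinct set of counts (2750) and each library left out in turn. The procedure was tested on simulated data. Summaries and figures were made in Python 3.11.15 (matplotlib 3.10.9, numpy 2.4.6, pandas 2.3.3, scipy 1.17.1). DNA sequence was not analysed here.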

Additional observations from a re-analysis of the deposited data

Results flagged for a closer look

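By a test of the interaction in edgeR, the effect of losing both enzymes differed from the sum of the single effects at 5 of 2768 windows. This share (0.181%) was near that of all windows (0.105%) and of coding windows on X (0.104%), so the count of calls alone does not set these windows apart. At an unadjusted p below 0.05 in the same test, 676 were positive and 53 negative, against 5055 and 6880 of all 51281 windows. The median interaction was 0.06 for the 2768 windows, 0.03 for coding windows on X and −0.05 for all windows tested. Each of the 5 called windows overlapped a coding window. Without WT replicate 2 the count of calls was 0 (0.0507% of all windows). With a replicate block it was 209 (7.55%, against 2.22% of all windows). The interaction was 0.49 at F41G4.10 (FDR = 0.0022), 0.45 at C45B2.19 (FDR = 0.0012), 0.43 at C45B2.16 (FDR = 0.0030), 0.45 at F41D9.15 (FDR = 0.0059) and 0.43 at 21ur-12247 (FDR = 0.0091), on the log2 scale. C45B2.16 and C45B2.19 overlap and share reads. With the signal index as a covariate the values were between 0.20 and 0.29, with FDRs from 0.752 to 0.915. At C45B2.19, C45B2.16 and F41D9.15 the single mutants had lower means than WT and the double mutant against WT did not pass the test.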

How the results depend on the processing

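In met-2 and set-25 against WT the counts were 0 under every alternative. For met-2 set-25 against WT, 380 windows were higher with TMM factors (13.7%, against 4.41% of all windows), including all 278. DESeq2 gave 473 (17.1%, against 5.39%). These held 270 of the 278, with 1 of them and 273 of all 2768 without an adjusted p. The signal index covariate gave 2 (0.0723%, against 0.0624%). Library sizes from X coding windows gave 141 higher and 36 lower (5.09 and 1.3%, against 1.91 and 11.5%). An FDR of 0.05 gave 496 higher and 3 lower (17.9 and 0.108%, against 6.46 and 3.89%). Among windows without coding overlap, a set of 1369, 127 were higher. Leaving out 1 library gave 37 to 415 higher (1.34 to 15%, against 0.478 to 5.28% of all windows) and 0 to 2 lower. Against met-2, counts of higher windows were 78 with TMM factors (2.82%, against 0.638% of all windows) and 270 with DESeq2 (9.75%, against 2.59%). They were 0 with the covariate (0.0293% of all windows) and 6 with X library sizes (0.217%, against 0.0722%). At an FDR of 0.05 they were 249 (9%, against 2.65%), with 1 lower. Without coding overlap there were 24, and with 1 library left out 0 to 133 (0 to 4.8%, against 0.041 to 1.21%). Against set-25 the calls were 0 higher and 0 lower with the covariate (0.0215 and 0.00195% of all windows). They were 364 and 127 with X library sizes (13.2 and 4.59%, against 4.57 and 32.6%), and 278 and 1 without coding overlap. At an FDR of 0.05, 24 were lower (0.867%, against 13.6%), and 6 with the compared genotypes only (0.217%, against 6.47%). Leaving out 1 library gave 319 to 628 higher (11.5 to 22.7%, against 3.69 to 8.65%) and 0 to 5 lower (0 to 0.181%, against 0.495 to 5.06%). The interaction was positive at 10 windows with TMM factors (0.361%, against 0.135% of all windows) and 168 with DESeq2 (6.07%, against 1.62%). It was positive at 0 with the covariate (0.0351% of all windows), 1 with X library sizes (0.0361%, against 0.0585%) and 19 without combined windows (0.686%, against 0.124%). At an FDR of 0.05 there were 224, with 2 negative (8.09 and 0.0723%, against 2.24 and 1.05%). Without coding overlap there were 0, and with 1 library left out 0 to 98 (0 to 3.54%, against 0.0507 to 0.901%), with 0 to 1 negative. The cause of these changes was not tested, except that fewer windows were counted without coding overlap.

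Small values changed sign. mir-73 was 0.0054 with TMM factors, 0.0074 with DESeq2 and −0.0843 to 0.0213 with 1 library left out. mir-74 was 0.0107, 0.0126 and −0.0769 to 0.0210 in the same fits, and mir-233 was −0.1073 to 0.0181 with 1 library left out. With the covariate mir-249 was 0.0828, mir-230 −0.0190 and mir-62 −0.0646. With X library sizes mir-230 was −0.0041, mir-62 −0.0382 and mir-240 −0.0334. The median log2FC in met-2 set-25 was 0.08 with TMM factors and DESeq2 and −0.04 with X library sizes.

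Replicate numbers were not treated as pairs, since the labels give no shared origin and not every same-number correlation of deviations from the genotype mean exceeded 0.1. The same-number correlation was −0.158 to 0.399 (mean 0.0909), against −0.0463 on average for other numbers. Deviations from a genotype mean sum to 0, so the average for other numbers follows largely from that of the same number. The best match was the own number in 18 of 36 cases, with 3 numbers to choose from. For replicates 2 and 3 of the genotypes other than set-25 the same-number correlation was 0.110 to 0.399, so these libraries deviated together in part. With a replicate block, 409 windows were higher in met-2 set-25 than in WT (14.8%, against 5.36% of all windows). Against met-2, 252 were higher and 1 lower (9.1 and 0.0361%, against 2.87 and 0.333%). Against set-25, 6 were lower (0.217%, against 6.48%). Interaction calls in that fit were 209 above 0 and 2 below (7.55 and 0.0723%, against 2.22 and 0.519% of all windows). The smallest called difference from WT was 0.21 on the log2 scale at a median SE of 0.061, so smaller changes may have been missed.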
